A study of Mus musculus with 18 samples.

Results

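Integrins are the receptors with which T cells hold on to vessel walls, epithelium and matrix, and they were measured here together with 8 other adhesion molecules in G9a knockout and wild-type T cells. The genes were chosen by name: every symbol of the RNA table that names an integrin alpha or beta chain, plus Cd44, Selplg, Icam1, Icam2, Vcam1, Pecam1, Cd2 and Cd47. That gave 34 of 23234 gene symbols, of which 26 were integrin chains (18 alpha and 8 beta). Tests covered the 25 of them that averaged 0.5 FPKM or more across the 10 RNA libraries, and 9 lay under that limit.

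G9a, encoded by Ehmt2, is a histone methyltransferase that acts on lysine 9 of histone H3. RNA came from C57BL/6 mouse T cells, collected from spleen and lymph nodes once they had multiplied for 4 weeks in lymphopenic surroundings. KO DP were CD4+CD8+ cells lacking G9a (n = 4), KO SP were CD4–CD8+ cells lacking G9a (n = 2), and WT SP were CD4–CD8+ cells with G9a (n = 4). No wild-type CD4+CD8+ library is among the samples analysed here, so in KO DP against WT SP the genotype and the CD4+CD8+ phenotype cannot be told apart. H3K9me3 was mapped in a separate set of cells, Ehmt2+/+ and Ehmt2-/- CD8+ T cells from spleen cultured with antibodies to CD3 and CD28 (n = 2 each). The labels give no age or sex, do not say how the deletion was made, and leave unsaid whether replicates are different animals. P-values therefore rest on the scatter of these libraries alone, part or all of which may be technical.

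An integrin is a pair of 1 alpha and 1 beta chain, and the pairing sets what it binds. Itgal with Itgb2 makes LFA-1, which binds ICAMs on other cells and steadies the contact between a T cell and its target. Itga4 pairs with Itgb1 to bind VCAM-1 and with Itgb7 to bind MAdCAM-1 of gut vessels, and Itgae (CD103) pairs with Itgb7 to bind E-cadherin on epithelial cells. Chains without their partner are largely kept inside the cell, so the RNA of a single chain is not the surface level of a receptor. Selectin ligands such as PSGL-1 (Selplg) act before integrins, in the rolling of cells along the vessel wall, and CD44 binds hyaluronan.

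The libraries did not stand on an equal footing. FPKM (fragments scaled to transcript length and to the mapped fragments of the library) summed to between 441903 and 504013 in 8 libraries, but to 292872 and 183632 in KO DP replicates 3 and 4. The same libraries averaged 0.150 and 0.229 FPKM across 1096 genes for olfactory receptors, a family of sensory neurons, against at most 0.0213 in the others. Results are therefore given as deposited and again after each library was divided by its median-ratio size factor (0.747 and 0.469 in KO DP replicates 3 and 4, 1.07 to 1.23 in the others), called scaled below. The sample titles carry numbers 34 to 37 (replicates 1 and 2 of KO DP, replicates 1 and 2 of WT SP) or 738 to 741 (all others), and what these numbers stand for is not given. Cd4 RNA followed the labels, at 49.4 to 178 FPKM in KO DP, at most 0.222 in KO SP and at most 0.495 in WT SP, while Ehmt2 RNA was still present in KO libraries (7.28 to 23.6 FPKM in KO DP, 12.6 and 13.6 in KO SP, 18.1 to 42.6 in WT SP). Xist was at 1.88 FPKM or more in all 6 KO libraries and at most 0.0338 in WT SP, while Ddx3y was at most 0.543 in KO and at least 21.5 in WT SP, so sex and genotype cannot be told apart. Markers of myeloid cells (19 genes, members left out) summed to 77.7 to 213 FPKM in the libraries titled 34 to 37 and to 17.6 to 32.1 in those titled 738 to 741, with no overlap.

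The integrin RNA of these cells was dominated by a few chains. Mean levels over the 10 libraries reached 100 FPKM or more for 7 genes: Selplg, Cd2, Itgb2, Itgb7, Cd47, Itgb1 and Itgal. Another 7 lay between 10 and 100 FPKM (Icam1, Icam2, Cd44, Itgae, Pecam1, Itgax and Itga4), 7 between 1 and 10 (Itga6, Itgam, Vcam1, Itgad, Itgb3, Itgav and Itga2), and 4 between 0.5 and 1 (Itga1, Itga7, Itgb5 and Itga3). The 3 beta chains Itgb1, Itgb2 and Itgb7 were thus all abundant, and Itgal was the alpha chain with the highest FPKM in all 10 libraries. Bulk RNA cannot tell fewer cells of a type from less RNA per cell, so every level below is a level of the whole sample.

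KO DP against WT SP was the only one of the 3 comparisons with a called member as deposited. As deposited, Itgae and Itga7 rose, Itgb3 fell, and 22 of the 25 tested genes were not called by limma at an adjusted p of 0.05. Over all 11162 tested genes 2.86% were called higher and 5.03% lower. After scaling, 5 members rose (Itgae, Itga7, Itga2, Itgb1 and Itgb7) and 4 fell (Itgb3, Icam2, Pecam1 and Selplg), against 9.2% and 8.82% of all genes. The median log2 difference of the tested members was -0.02 as deposited, where all genes had a median of -0.38, and 0.29 after scaling, where all genes had -0.04. No test of the members as a group was made. Without KO DP replicates 3 and 4, the as-deposited counts were 4 higher (Itgae, Itga7, Itgad and Itgb1) and 0 lower, against 4.95% and 2.53% of all genes.

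**Figure D1:**
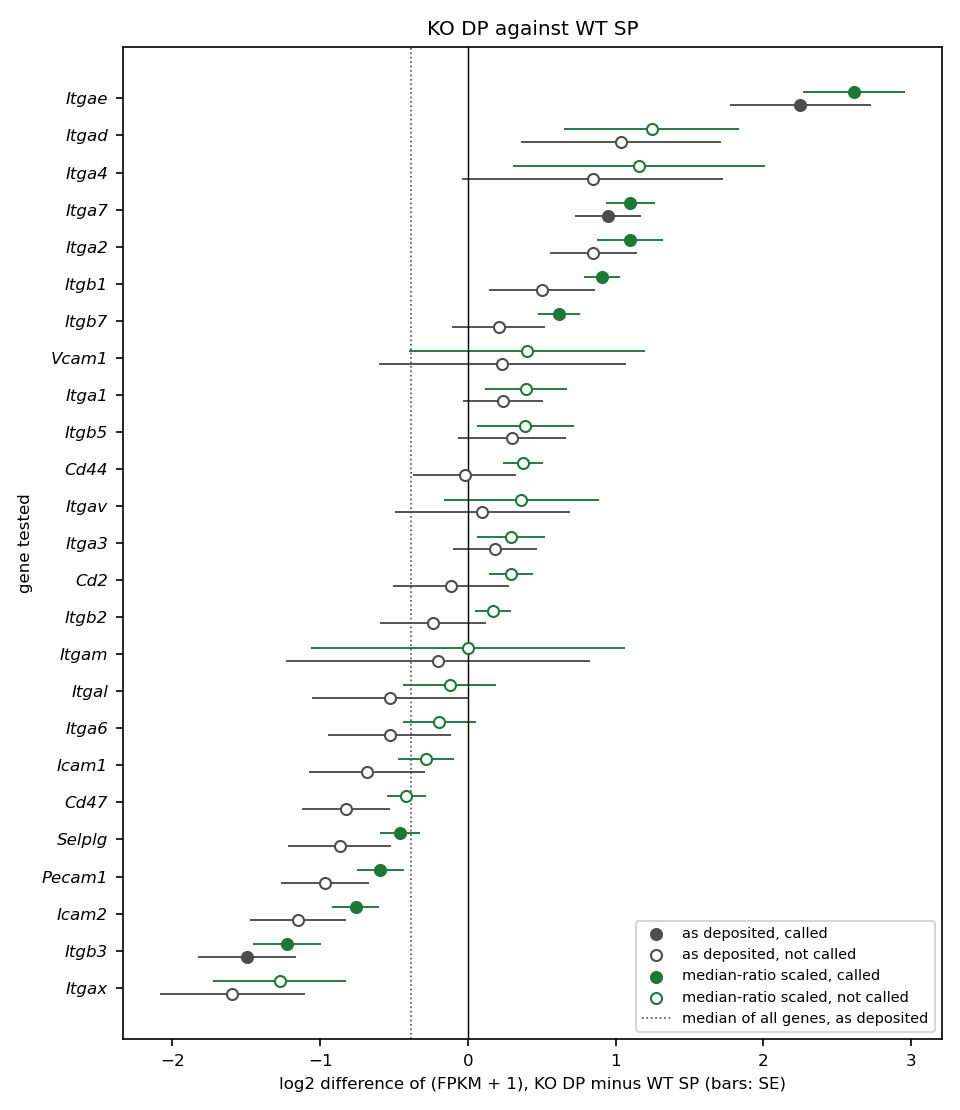
Difference KO DP minus WT SP on the log2(FPKM + 1) scale for the 25 tested genes, as deposited and scaled, with standard errors, filled symbols for called genes and a dotted line at the median of all tested genes. Itgae has the largest positive difference on both scales, and Itgb1 and Itgb7 pass the test only after scaling.

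Itgae, the alpha chain that ties T cells to E-cadherin, showed the largest rise. Its FPKM was 55.4, 39.7, 23.2 and 11.7 in KO DP, 13.5 and 12.9 in KO SP, with 9.58, 2.09, 4.67 and 6.44 in WT SP. Every KO DP library lay above every WT SP library, and both KO SP libraries lay between their means, at 13.2 ± 0.451 (SD, n = 2) against 32.5 ± 19.1 (SD, n = 4) in KO DP and 5.69 ± 3.15 (SD, n = 4) in WT SP. KO DP exceeded WT SP by 2.25 ± 0.48 on the log2 scale (SE; adjusted p = 0.0163, limma), and by 2.61 ± 0.34 after scaling (adjusted p = 0.00124). Within titles 34 to 37 the as-deposited difference was 3.07 and within titles 738 to 741 it was 1.43 (adjusted p = 0.194 and 0.0199). The call ended without WT SP replicate 3 (adjusted p = 0.062) and when no filter on low genes was used (0.0718). Genes of dendritic cells, some of which also carry CD103, summed to 270 to 945 FPKM in KO DP, 348 and 429 in KO SP and 272 to 605 in WT SP, with overlap. Cd74 alone was at 151 to 563 FPKM in KO DP, 128 and 177 in KO SP and 92.8 to 319 in WT SP. Flt3 and Clec9a reached at most 0.590 and 0.327 FPKM in any library. The sums are thus not a measure of dendritic cells. As deposited none of 10 tested dendritic markers was called in KO DP against WT SP. After scaling 3 rose (Xcr1, Zbtb46 and Cd74), against 9.2% of all genes, and none was called lower. Itgax, on the same list, ran the other way (-1.27 ± 0.45 scaled, adjusted p = 0.0805, limma). Xcr1 was at 1.88 to 2.93 FPKM as deposited in KO DP, 0.9703 and 1.38 in KO SP and 0.524 to 1.52 in WT SP. The part of these markers in the Itgae result was not tested.

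Itgb7, the partner of Itgae and, in the gut-homing receptor, of Itga4, was among the most abundant chains in every group. Its FPKM was 462, 499, 396 and 219 in KO DP, 478 and 443 in KO SP, with 310.1, 275, 410.00 and 321 in WT SP. As deposited the KO DP and WT SP ranges overlapped, with a difference of 0.21 ± 0.32 (adjusted p = 0.648), whereas both KO SP libraries lay above all 4 WT SP libraries. After scaling the values were 394, 425, 531 and 467 in KO DP, 389 and 381 in KO SP, with 289.8, 245, 360.1 and 291 in WT SP. The scaled KO DP values no longer overlapped WT SP and were higher by 0.62 ± 0.14 (adjusted p = 0.0185, limma). Within titles 738 to 741 the as-deposited difference had the opposite sign (-0.30), while the scaled difference was 0.62 in each range of titles.

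Itgb1, the beta chain that joins most matrix-binding alpha chains, also separated after scaling. Its FPKM was 305, 280.1, 189 and 94.5 in KO DP, 184 and 157 in KO SP, with 144, 150.04, 120.2 and 145 in WT SP. KO DP replicate 4 lay below all WT SP libraries and the other 3 KO DP libraries above them, and the difference of 0.50 ± 0.36 did not pass the test (adjusted p = 0.354). After scaling, KO DP stood at 259.97, 239, 253 and 201 FPKM, KO SP at 149.6 and 135, and WT SP at 135, 134, 106 and 131. Scaled KO DP values were clear of WT SP and higher by 0.91 ± 0.12 (adjusted p = 0.00148, limma). The as-deposited difference without KO DP replicates 3 and 4 was 1.06 (adjusted p = 0.0054).

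Itga4, which joins either of these beta chains, varied too much between libraries to be placed. Its FPKM was 20.9, 26.3, 4.51 and 3.68 in KO DP, 6.82 and 2.67 in KO SP, with 5.397, 41.5, 1.32 and 1.34 in WT SP. WT SP replicate 2 was the highest of all libraries, and the KO DP and WT SP ranges overlapped (0.85 ± 0.88, adjusted p = 0.508). Scaled values within titles 738 to 741 differed by 1.85 (adjusted p = 0.0157), and within titles 34 to 37 by 0.47 (adjusted p = 0.832).

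**Figure D2:**
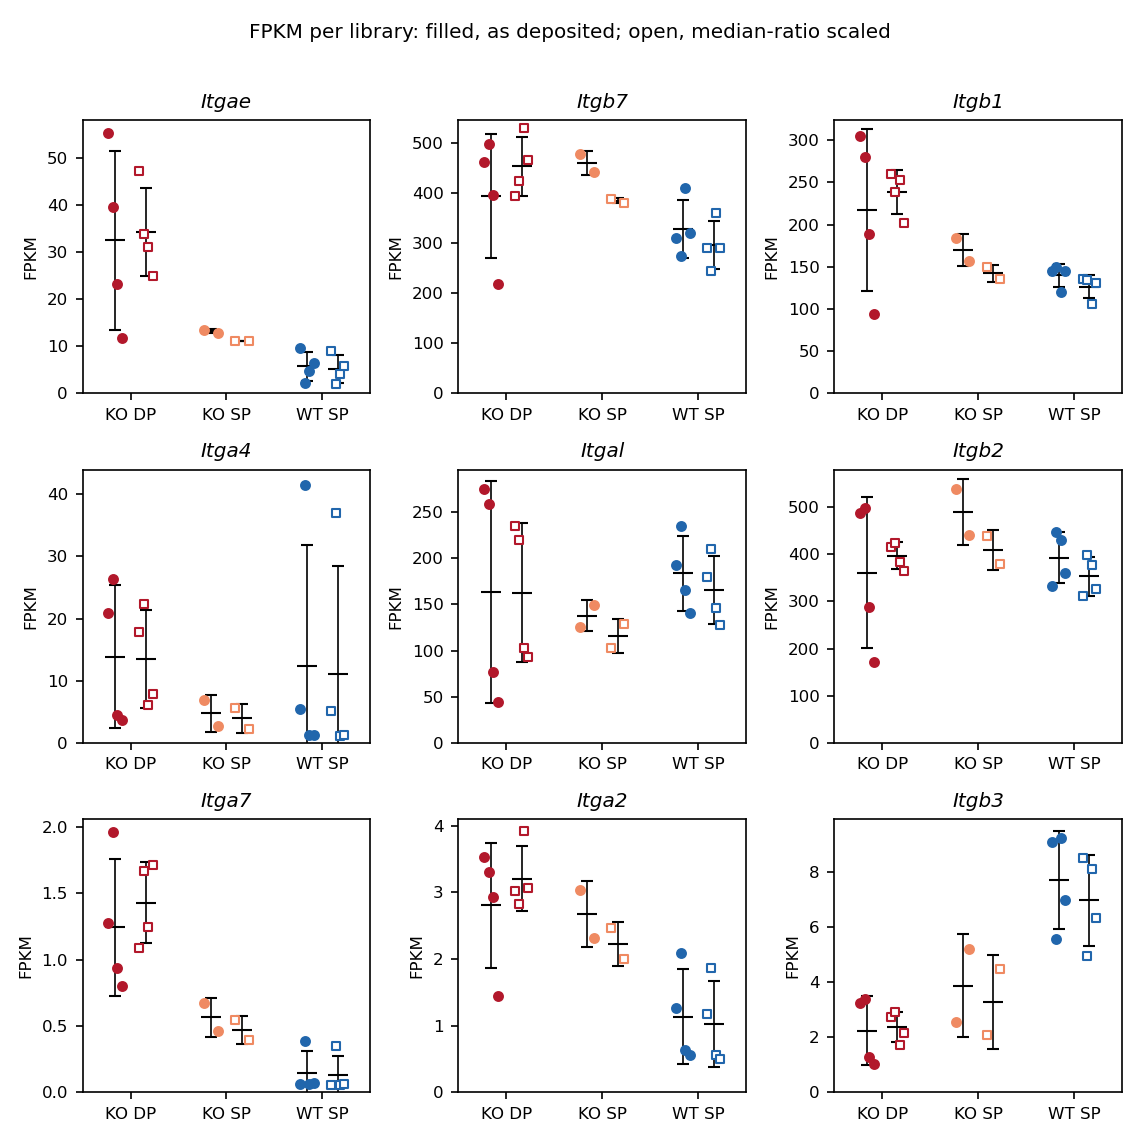
FPKM of 9 integrin chains in each library by group (KO DP n = 4, KO SP n = 2, WT SP n = 4), with filled points as deposited, open points scaled, and mean and SD. Itgae in KO DP lies above WT SP on both scales, Itgb3 lies below, and Itgb1 and Itgb7 separate only on the scaled points.

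Among the alpha chains that pair with Itgb1, the laminin receptor chain Itga7 rose from a very low level. Its FPKM was 1.28, 1.96, 0.932 and 0.802 in KO DP, 0.669 and 0.459 in KO SP, with 0.0604, 0.390, 0.0651 and 0.0729 in WT SP. All 6 KO libraries lay above all 4 WT SP libraries, of which replicate 2 stood highest. KO DP exceeded WT SP by 0.95 ± 0.22 on the log2(FPKM + 1) scale (adjusted p = 0.025, limma), a scale that understates the change of a gene this low, and by 1.10 ± 0.17 after scaling (adjusted p = 0.00274). The call ended when WT SP replicate 1, 3 or 4 was left out (adjusted p = 0.0723, 0.0779 and 0.073).

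Itga2, the collagen-binding chain known as CD49b, was at 3.54, 3.31, 2.93 and 1.44 FPKM in KO DP, 3.03 and 2.32 in KO SP, with 1.26, 2.09, 0.636 and 0.554 in WT SP. Both KO SP libraries and 3 of the 4 KO DP libraries lay above every WT SP library. KO DP minus WT SP was 0.85 ± 0.29 (adjusted p = 0.0958), and it passed the test after scaling (1.10 ± 0.22, adjusted p = 0.0103) and with the replicate number as a block (0.85 ± 0.25, adjusted p = 0.0407, limma). In that blocked fit 4.8% of all genes were called higher and 8.05% lower. The replicate numbers are not shown to mark pairs, so the blocked fit is an alternative only. CD49b also marks NK cells, whose markers (members left out) summed to 13.8 to 108 FPKM in KO DP, 61.0 and 124 in KO SP and 48.1 to 166 in WT SP. Eomes alone was at 8.40 to 43.3 FPKM in KO DP, 38.4 and 49.1 in KO SP and 33.4 to 78.1 in WT SP. The sums are thus not a measure of NK cells, and the part of these markers in the Itga2 result was not tested.

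The other Itgb1 partners showed no called difference. The laminin chain Itga6 was at 2.77 to 13.5 FPKM in KO DP, 8.62 and 9.26 in KO SP and 8.11 to 16.9 in WT SP (-0.53 ± 0.41, adjusted p = 0.387). Over all groups Itga6 split by title, at 11.6 to 16.9 FPKM under titles 34 to 37 and 2.77 to 9.26 under titles 738 to 741. The collagen chain Itga1 was at 0.389 to 1.12 FPKM in KO DP, 0.629 and 1.71 in KO SP and 0.0798 to 1.02 in WT SP, and Itga3, another laminin receptor chain, at 0.303 to 1.52, 0.155 and 0.156, and 0.238 to 1.45. For both, the ranges of KO DP and WT SP overlapped.

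The 3 genes of this family that rose after scaling and have a promoter in the RefSeq table used here were Itgb1, Itga2 and Itgb7, and their promoters are shown because these chains are parts of the receptors described above. The table held 21 of the 34 members and 3 of the 9 members called on either scale. Each sequence runs 5′ to 3′ on the gene's strand, from 250 bases before to 50 after the start, in GRCm38.p6, and capitals mark a GC box.
Itgb1: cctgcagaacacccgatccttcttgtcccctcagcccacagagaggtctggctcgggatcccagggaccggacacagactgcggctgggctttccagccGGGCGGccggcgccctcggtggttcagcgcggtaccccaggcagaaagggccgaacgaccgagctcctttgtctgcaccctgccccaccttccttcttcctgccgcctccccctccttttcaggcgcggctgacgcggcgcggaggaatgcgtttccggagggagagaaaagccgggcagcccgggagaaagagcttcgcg
Itga2: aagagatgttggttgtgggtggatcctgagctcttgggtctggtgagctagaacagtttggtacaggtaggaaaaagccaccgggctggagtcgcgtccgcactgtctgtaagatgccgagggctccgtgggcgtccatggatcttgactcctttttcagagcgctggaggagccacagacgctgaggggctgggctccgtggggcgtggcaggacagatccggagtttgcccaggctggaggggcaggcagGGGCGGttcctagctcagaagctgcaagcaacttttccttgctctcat
Itgb7: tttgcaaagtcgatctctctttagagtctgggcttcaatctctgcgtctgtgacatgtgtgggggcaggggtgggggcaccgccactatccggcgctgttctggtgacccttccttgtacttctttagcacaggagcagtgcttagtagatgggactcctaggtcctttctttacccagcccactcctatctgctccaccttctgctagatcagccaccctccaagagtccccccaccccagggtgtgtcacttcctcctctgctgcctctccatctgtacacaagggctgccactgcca
The Itgb1 window is chr8:128685404-128685703 on the plus strand (67.3% G or C), the Itga2 window chr13:114932051-114932350 on the minus strand (59.3%), and the Itgb7 window chr15:102231886-102232185 on the minus strand (56.3%), against a median of 52.7% over 32851 promoters. A GC box, searched as GGGCGG or CCGCCC, occurred once in Itgb1 and once in Itga2 and in 35.7% of all promoters of this length. The RUNX motif, searched as TGTGGT or ACCACA, is in 16.8% of all promoters and the AP-1 motif, searched as TGACTCA or TGAGTCA, in 5.20%, and neither set of letters is in any of the 3 windows. The motifs do not overlap each other, and a match describes letters only.

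No difference in the LFA-1 chains passed the test. Itgal was at 275, 258, 77.1 and 43.8 FPKM in KO DP, 126 and 149.8 in KO SP, with 193, 235, 166 and 141 in WT SP. KO DP split into a pair above and a pair below all WT SP libraries, and the difference was -0.53 ± 0.53 as deposited (adjusted p = 0.49) and -0.12 ± 0.32 scaled (adjusted p = 0.82). The as-deposited difference was positive within titles 34 to 37 (0.32) and negative within titles 738 to 741 (-1.38), where all genes had medians of 0.05 and -0.82. Itgal was at 193 to 275 FPKM in all libraries titled 34 to 37, WT SP included, and at 43.8 to 166 in all those titled 738 to 741. Itgb2, its partner, was at 488, 499, 287 and 171 FPKM in KO DP, 539 and 440.1 in KO SP, with 334, 447, 429.8 and 360.04 in WT SP, with overlapping ranges and a difference of -0.24 ± 0.36 that turned to 0.17 ± 0.12 after scaling (adjusted p = 0.653 and 0.362).

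The other alpha chains that pair with Itgb2 are best known from myeloid cells, and no 1 pattern covered them. Itgam, the chain of Mac-1, was at 59.8 FPKM in WT SP replicate 2 and at 0.295 to 8.31 in the 9 other libraries. Myeloid markers in that library summed to 165 FPKM, below the 213 of KO DP replicate 1, where Itgam was at 3.86. NK cell markers, members left out, had their highest sum in WT SP replicate 2 (166 FPKM). Their next highest sum was in KO SP replicate 1 (124 FPKM), where Itgam was at 8.31. In these libraries, in that order, Eomes was at 78.1 and 49.1 FPKM and Klre1 at 38.4 and 61.7. Ncr1 was at 0.406 and 0, and Klrb1c at 0.365 and 3.10. The NK sums are thus not a measure of NK cells. Itgax (CD11c) was at 5.95, 4.48, 2.66 and 1.99 FPKM in KO DP, 26.2 and 13.4 in KO SP, with 12.96, 36.3, 5.88 and 8.68 in WT SP. Only WT SP replicate 3 fell within the KO DP values, and the difference of -1.59 ± 0.49 missed the threshold (adjusted p = 0.0684, limma). It passed with the replicate block (-1.59 ± 0.37, adjusted p = 0.0175, limma), an alternative fit on numbers that are not shown to mark pairs. Itgad was at 12.4 and 17.4 FPKM in KO DP replicates 1 and 2, at 1.18 and 1.09 in replicates 3 and 4, and at 0.839 to 4.12 in the KO SP and WT SP libraries (1.04 ± 0.68, adjusted p = 0.319). The part of other cells in these 3 values was not tested.

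Among chains that bind vitronectin and fibrinogen, Itgb3 fell. It pairs with Itgav and, in platelets, with Itga2b. Its FPKM was 3.24, 3.41, 1.29 and 1.02 in KO DP, 2.56 and 5.21 in KO SP, with 9.11, 5.57, 9.25 and 6.99 in WT SP. All 6 KO libraries lay below all 4 WT SP libraries. KO DP differed from WT SP by -1.49 ± 0.33 (adjusted p = 0.0209, limma) and by -1.22 ± 0.23 after scaling (adjusted p = 0.00769). The call ended without KO DP replicate 3 or WT SP replicate 1, 3 or 4 (adjusted p = 0.0577 to 0.0819), without both KO DP replicates 3 and 4 (-0.99, 0.0886), and with no filter (0.0642). Platelet markers (10 genes, of which 5 were below 0.5 FPKM in all libraries) summed to 2.19 to 9.76 FPKM in KO DP, 0.384 and 0.643 in KO SP and 0.379 to 11.2 in WT SP, and their part in the Itgb3 result was not tested.

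Its partner Itgav followed the sample titles, not the groups. It was at 8.44, 10.5, 3.43 and 12.5 FPKM in the libraries titled 34 to 37 and at 1.31 to 2.14 in the others, and KO DP minus WT SP was 0.10 ± 0.59 (adjusted p = 0.914). Vcam1, the ligand of the Itga4 and Itgb1 pair and a gene of stromal cells and some macrophages, showed the same split, at 6.06 to 18.1 FPKM against 0.555 to 1.92 (0.23 ± 0.84, adjusted p = 0.853). Itgb5 was at 0.435 to 1.99 FPKM in the first libraries and 0.0228 to 0.395 in the second. Myeloid markers split these libraries in the same way. The sums of the stromal list did too (29.9 to 52.7 FPKM against 3.47 to 27.3), but 11 of its 12 genes were below 0.5 FPKM in all libraries. The gene above that level was Thy1, which is also on the T cell list, at 29.8 to 52.2 against 3.34 to 27.1 FPKM. The stromal sums are thus not a measure of stromal cells. The part of other cells in Itgav, Vcam1 and Itgb5 was not tested.

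The ICAMs and PECAM-1, immunoglobulin-type molecules through which leukocytes meet each other and the vessel wall, did not all move alike. Icam2, a ligand of LFA-1, was at 33.2, 32.97, 23.3 and 13.2 FPKM in KO DP, 61.3 and 62.4 in KO SP, with 51.4, 39.9, 67.2 and 65.7 in WT SP. All KO DP libraries lay below all libraries of the other groups. The difference from WT SP was -1.15 ± 0.32 as deposited (adjusted p = 0.0507) and -0.76 ± 0.16 after scaling (adjusted p = 0.0114, limma). Pecam1 was at 13.3, 13.5, 9.57 and 5.94 FPKM in KO DP, 17.6 and 22.7 in KO SP, with 18.7, 15.9, 25.5 and 23.96 in WT SP, again with KO DP below both (-0.97 ± 0.30, adjusted p = 0.0697, and scaled -0.59 ± 0.16, adjusted p = 0.0317). Endothelial markers, members left out, summed to at most 2.78 FPKM in every library, with 10 of 12 genes below 0.5 FPKM throughout. Icam1 did not pass on either scale (-0.68 ± 0.39, adjusted p = 0.269), with 22.6 to 95.1 FPKM in KO DP, 83.1 and 90.6 in KO SP and 60.9 to 75.6 in WT SP.

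Selplg, which encodes the P-selectin ligand PSGL-1, was at 550.3, 461, 355 and 196 FPKM in KO DP, 1031 and 797 in KO SP, with 582, 644, 796 and 657 in WT SP. KO DP lay below every other library, by -0.87 ± 0.35 against WT SP (adjusted p = 0.138), and scaled by -0.46 ± 0.13 (adjusted p = 0.0394, limma). Cd47, which signals to phagocytes, was lower in every KO DP library (102 to 214 FPKM) than in WT SP (259 to 353), but did not pass on either scale (-0.82 ± 0.30, adjusted p = 0.109, and scaled -0.42 ± 0.13, adjusted p = 0.059). Cd2, which binds CD48 in the mouse, was at 229 to 799.5 FPKM in KO DP and 429 to 541 in WT SP (-0.12 ± 0.39, adjusted p = 0.847, turning to 0.29 ± 0.15 after scaling). Cd44, the hyaluronan receptor and a marker of antigen-experienced T cells, was at 15.3 to 48.8 FPKM in KO DP, 26.05 and 31.2 in KO SP, and 27.9 to 37.01 in WT SP (-0.02 ± 0.35, adjusted p = 0.973, turning to 0.37 ± 0.13 after scaling, adjusted p = 0.0829).

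Counted without a model, 2 members lay above and 5 below WT SP in every KO DP library as deposited (Itga7 and Itgae; Cd47, Icam2, Itgb3, Pecam1 and Selplg), against 3.4% and 13.1% of all tested genes. After scaling the counts were 5 above (adding Itga2, Itgb1 and Itgb7) and 6 below (adding Itgax), against 9.43% and 10.2%. Within titles 34 to 37 alone, scaled values gave no member past limma's adjusted threshold and 11 of 25 below an unadjusted 0.05, where 18.1% of all genes lay (2 libraries against 2, with adjusted calls for 0.34% and 0.188% of all genes higher and lower). Within titles 738 to 741 they gave 8 higher and 4 lower, against 14.7% and 13.8% of all genes. The 9 members called after scaling were all free of overlap between scaled KO DP and WT SP values. Their differences could therefore not change sign within a range of titles, and the ranges are not separate evidence. Within titles 34 to 37 and then 738 to 741, the scaled log2 differences were 2.94 and 2.29 for Itgae, and 0.98 and 1.22 for Itga7. They were 0.88 and 0.93 for Itgb1, 0.65 and 1.55 for Itga2, and 0.62 in both for Itgb7. Among those that fell they were -0.98 and -1.47 for Itgb3, and -0.54 and -0.98 for Icam2. Pecam1 was at -0.44 and -0.75, and Selplg at -0.38 and -0.54.

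The 9 members below the limit for testing are given as values only. Itgb8, which with Itgav activates TGF-beta, was at 1.24, 1.47, 0.194 and 0.202 FPKM in KO DP, listed at 0 in both KO SP libraries, and at 0 to 0.112 in WT SP. Itga9 was at 0.227 to 0.901 FPKM in KO DP, 0.0335 and 0.0503 in KO SP and 0.0157 to 0.324 in WT SP. Itgb6, an epithelial chain, was at 0.419 and 0.710 FPKM in KO DP replicates 3 and 4, the libraries with the high olfactory receptor values, and at most 0.0445 elsewhere, and the part of that background was not tested. Itga2b was at 0.0926 to 1.34 FPKM and Itgb4 was listed at 0 in 8 libraries, with 0.880 in WT SP replicate 2 and 0.159 in KO DP replicate 4. Itga5, the fibronectin receptor chain, was at 0 to 0.292, and Itga8, Itga10 and Itga11 reached at most 0.118, 0.110 and 0.1696.

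KO SP against WT SP sets genotypes side by side in cells of the same phenotype, with 2 libraries against 4. No member was called by limma on either scale, with 1 (as deposited) and 3 (scaled) of 25 below an unadjusted 0.05 against 3.44% and 13.3% of all genes, and few genes were called at all: 0.0717% higher and 0.0448% lower as deposited, and 0.134% and 0.0448% after scaling. For the 9 members called in KO DP on either scale, the differences here were 1.22 ± 0.58 for Itgae, 0.83 ± 0.36 for Itga2, 0.45 ± 0.27 for Itga7, 0.28 ± 0.44 for Itgb1, 0.50 ± 0.39 for Itgb7 and -0.87 ± 0.41 for Itgb3. Among the members that fell in KO DP after scaling, Selplg (0.45 ± 0.42) and Icam2 (0.17 ± 0.40) had the opposite sign here, and Pecam1 was at -0.0475 ± 0.37. These comparisons share the WT SP libraries, so they are not separate evidence, and the lowest adjusted p of a member was 0.938 (0.356 scaled). The KO SP libraries lay above all WT SP libraries for 7 members (Icam1, Itga2, Itga7, Itgae, Itgb1, Itgb7 and Selplg) and below for 2 (Itga3 and Itgb3), while over all genes the shares were 21.1% and 11.1%. The members' median difference was 0.28, against 0.11 over all genes, and 0.60 against 0.30 with a term for the title range.

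KO DP against KO SP compares phenotypes among cells that all lack G9a. As deposited limma called no member, with 5 of 25 below an unadjusted 0.05 against 23.5% of all genes, and it called 0.421% of all genes higher and 1.65% lower. Replicates 3 and 4 of KO DP carry the same title numbers, 738 and 739, as KO SP replicates 1 and 2, and the labels do not say whether a shared number means a shared animal. After scaling Itgb1 (0.73 ± 0.15, adjusted p = 0.0243, limma) and Cd44 (0.65 ± 0.16, adjusted p = 0.0471) rose, and Selplg (-0.80 ± 0.16, adjusted p = 0.0227) and Icam2 (-0.82 ± 0.19, adjusted p = 0.0396) fell, against 2.44% and 3.48% of all genes. Their as-deposited differences were 0.22 ± 0.44 for Itgb1, 0.16 ± 0.43 for Cd44, -1.31 ± 0.42 for Selplg and -1.32 ± 0.40 for Icam2. Itgae was higher in 3 of the 4 KO DP libraries than in both KO SP libraries, and missed the threshold with 1.03 ± 0.58 (adjusted p = 0.285) and 1.51 ± 0.42 scaled (adjusted p = 0.066). Itgax was lower in all KO DP libraries, by -2.13 ± 0.60 (adjusted p = 0.0856) and -1.70 ± 0.55 scaled (adjusted p = 0.1).

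Ratios of chains within a library do not depend on the library's total. Itgae FPKM divided by that of its partner Itgb7 was 0.120, 0.0796, 0.0585 and 0.0534 in KO DP, 0.0283 and 0.0291 in KO SP, with 0.0309, 0.0076, 0.0114 and 0.0201 in WT SP. Itgb1 divided by Itgb2 was 0.625, 0.562, 0.658 and 0.553 in KO DP, 0.341 and 0.357 in KO SP, with 0.433, 0.336, 0.280 and 0.402 in WT SP. In both ratios every KO DP library lay above every other library. Itga6 divided by Itgb1 ran the other way, at 0.0293 to 0.0441 in KO DP, 0.0469 and 0.0590 in KO SP and 0.0627 to 0.113 in WT SP.

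Of 10 chain ratios these 3 separated KO DP from WT SP, on log2 ratios of FPKM + 1. The means were -3.70 ± 0.494 against -5.74 ± 0.725 for Itgae to Itgb7, -0.74 ± 0.120 against -1.48 ± 0.281 for Itgb1 to Itgb2, and -4.58 ± 0.196 against -3.55 ± 0.343 for Itga6 to Itgb1 (SD, n = 4 each). Each had a two-sided exact permutation p of 0.0286, the smallest that 4 against 4 libraries allow. Over the 30 tests made, the adjusted p of each was 0.286. Had all 10 ratios reached that smallest p, the adjusted p would still have been 0.0857. No ratio could therefore pass the threshold, so the test cannot decide whether a ratio differs. Itgae and Itgb1 were already called after scaling in the same libraries, and Itgb1 is in both Itgb1 to Itgb2 and Itga6 to Itgb1. The ratios are thus not separate evidence. For these 3 ratios, all KO DP libraries lay on the same side of all WT SP libraries. Separation within each range of title numbers therefore had to follow and adds nothing.

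**Figure D3:**
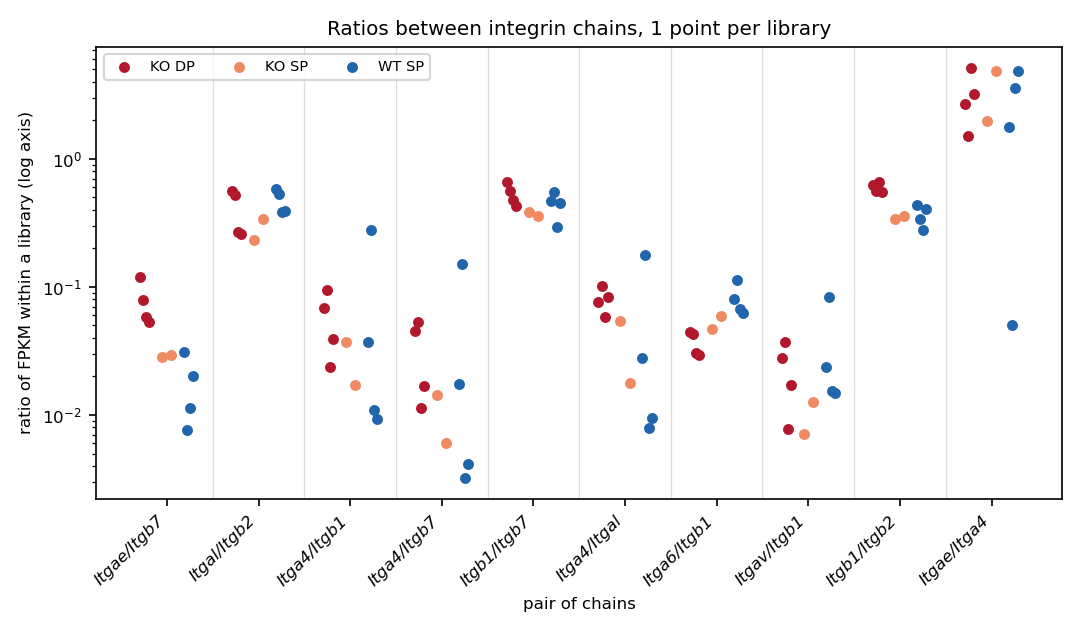
The 10 ratios of FPKM between integrin chains in each library, on a log axis, 1 point per library, coloured by group (KO DP n = 4, KO SP n = 2, WT SP n = 4). Itgae to Itgb7 and Itgb1 to Itgb2 are higher, and Itga6 to Itgb1 lower, in all 4 KO DP libraries than in all WT SP libraries.

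As a share of all alpha-chain FPKM, Itgae made up 13.7%, 10.4%, 18.9% and 16.3% in KO DP, 6.75% and 6.47% in KO SP, with 3.94%, 0.50%, 2.45% and 3.76% in WT SP. These shares did not overlap between any of the groups. Itgal held most of the remainder, with 60.9% to 68.0% in KO DP, 62.8% and 75.1% in KO SP and 56.7% to 87.0% in WT SP. Itgax took 1.89% ± 0.72 in KO DP, 9.87% ± 4.47 in KO SP and 5.56% ± 2.36 in WT SP (SD, n = 4, 2 and 4). Among beta chains, Itgb1 made up 21.75% ± 1.95 in KO DP, 15.1% ± 0.18 in KO SP and 16.2% ± 2.60 in WT SP, and Itgb2 36.4% ± 2.92, 43.5% ± 1.91 and 45.04% ± 3.96. FPKM is per length, so these shares compare transcripts of different chains, and their sum is fixed at the whole.

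**Figure D4:**
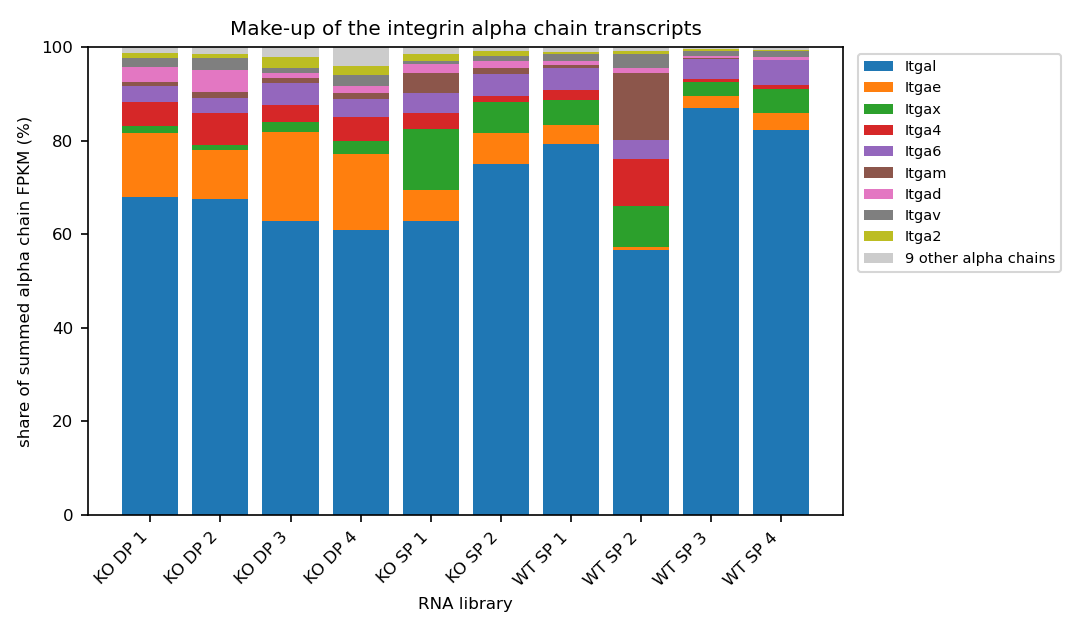
Share of the summed alpha-chain FPKM taken by each chain, in percent, as 1 stacked bar per library. The Itgae share is 10.4% to 18.9% in KO DP, 6.47% and 6.75% in KO SP, and at most 3.94% in WT SP.

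Other genes of the adhesion pathway were read from lists written with earlier results known. Among 35 tested genes that link integrins to the cytoskeleton or switch them on, 1 rose and 2 fell in KO DP against WT SP, near the 2.86% and 5.03% of all genes, with a list median of -0.48 beside -0.38 for all genes. The tetraspanin gene Tspan32 rose by 1.27 ± 0.31 (adjusted p = 0.0301), and the actin cross-linker Actn1 fell by 2.57 ± 0.37 (adjusted p = 0.00186, limma), with the focal adhesion kinase Ptk2 at -0.86 ± 0.23 (adjusted p = 0.0451). Of 31 integrin ligand genes only 5 were tested, and Cdh1 (E-cadherin, the ligand of the Itgae and Itgb7 pair) fell by 2.27 ± 0.39 (adjusted p = 0.00559). Cdh1 was at 0.373 to 1.79 FPKM in KO DP, 2.65 and 4.58 in KO SP and 3.58 to 12.1 in WT SP. Without KO DP replicates 3 and 4, Actn1 was still called, but Tspan32, Ptk2 and Cdh1 were not. Ptk2 was not called after scaling either.

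Among genes of enzymes that build selectin ligands on PSGL-1, differences ran both ways. Fut7 rose by 1.78 ± 0.25 (adjusted p = 0.00182) and Gcnt1 by 2.43 ± 0.39 (adjusted p = 0.00369). Fut7 was at 30.6 to 52.3 FPKM in KO DP, 17.2 and 20.4 in KO SP, and 9.63 to 12.9 in WT SP, and Gcnt1 at 6.18 to 19.9, 2.44 and 2.64, and 0.428 to 3.37. The sialyltransferase gene St3gal4 passed the test only on scaled values, where it fell by 0.63 ± 0.19 (adjusted p = 0.0480), and St3gal6 only on scaled values against KO SP, where it fell by 0.73 ± 0.17 (adjusted p = 0.0366). With Alcam (1.59 ± 0.34, adjusted p = 0.0167), 3 of 27 other adhesion genes rose and 1 fell, against 2.86% and 5.03% of all genes, with a list median of 0.13. After scaling 10 rose and 2 fell, against 9.2% and 8.82%. Without KO DP replicates 3 and 4, Fut7 and Gcnt1 were still called as deposited, but Alcam was not.

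TGF-beta signalling is a known inducer of Itgae in T cells. A list of its receptors, Smads and feedback genes, together with Runx1, Runx3 and Cbfb, had 18 tested genes. The list holds inhibitors of the pathway as well as mediators, so its counts and median do not give a direction of signalling. As deposited 1 fell, the inhibitor Smad7 (-1.86 ± 0.49, adjusted p = 0.0382), and none rose, against 5.03% and 2.86% of all genes, with a list median of -0.64. Smad7 was at 6.67, 5.33, 0.818 and 0.849 FPKM in KO DP and 9.06 to 17.8 in WT SP, and was not called without KO DP replicates 3 and 4. After scaling, Runx1 and Cbfb rose, and Smad4, Smad7, Smurf1 and Smurf2 fell, 2 and 4 of 18 against 9.2% and 8.82% of all genes. Of 28 genes linked to tissue residency and egress, 4 rose (Ahr, Gpr55, P2rx7 and Rgs1), against 2.86% of all genes. Another 5 fell, among them Ccr7, Cdh1, Cd69 and S1pr1, against 5.03% of all genes. After scaling 7 rose and 8 fell, against 9.2% and 8.82%. The list median as deposited was -0.07, but the list pools genes of residency with genes of egress, so its median gives no direction. Ahr, the aryl hydrocarbon receptor, rose by 2.15 ± 0.29 (adjusted p = 0.0012), the lymph node chemokine receptor gene Ccr7 changed by -3.55 ± 0.40 (adjusted p = 0.000399), and the egress receptor gene S1pr1 by -1.22 ± 0.30. Cd69, often found together with CD103 on resident cells, fell by 1.69 ± 0.35, and was not called without KO DP replicates 3 and 4. In KO SP against WT SP limma called no gene of these lists, with 9 of 109 below an unadjusted 0.05 against 3.44% of all genes.

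H3K9me3, a mark of silent chromatin, was read from the 4 deposited peak lists of cultured CD8+ T cells, which annotate each peak to the gene with the nearest start in mm9. The lists held 85960 and 23304 peaks in wild type and 111149 and 154997 in Ehmt2-/- cells, so a count of peaks moves with the length of its list. Peaks annotated to the 34 members numbered 86 and 45 in wild type and 87 and 105 in Ehmt2-/- cells, which is 0.10005% and 0.193% of the wild-type lists and 0.0783% and 0.0677% of the Ehmt2-/- lists. Members with a peak in at least 1 list numbered 24, and 17 had a peak in all 4 lists. The shares over all genes are not given here. These counts, and that of members without a peak, therefore do not set the members apart from other genes. No test of 2 lists against 2 can pass the threshold, since its smallest exact two-sided p is 0.333.

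The peaks gathered at a few genes. Itga1 had 24 and 8 peaks in wild type and 43 and 45 in Ehmt2-/- cells, Itgb1 had 13 and 7 against 7 and 11, and Cd2 10 and 8 against 7 and 8. Itgae, whose RNA rose in KO DP, had 1 peak in each of 2 lists, 1 wild-type and 1 Ehmt2-/-, and Itgb3 had 4 and 1 against 3 and 3. No list annotated a peak to 10 members: Itgb7, Itga7, Selplg, Icam1, Icam2, Itgad, Itga2b, Itga5, Itga8 and Itga10. Itga7, Itgb7, Selplg and Icam2 are thus members whose RNA passed the test on the scaled values and to which no list annotated a peak.

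Within 20 kb of a member's start, 8 regions were shared by all 4 lists, 1 at each of 8 members, by overlap of at least 1 base. At the LFA-1 chains, chr7:134430218-134431845 lay upstream of Itgal, with peaks at -8743 to -8588 bases from the start, and chr10:76994547-76995880 lay in intron 1 of Itgb2, at 2120 to 2191 bases. The Itgb1 region chr8:131200009-131201084 was intergenic, with peaks at -9042 to -8943 bases, and that of Itga1, chr13:115892835-115894855, had peaks at -2154 to -1337 bases. Itgam carried its region in intron 2 of 29 (chr7:135209425-135210466), and the Itgax region chr7:135261939-135263616 was annotated to a transcription end site, at -10752 to -10119 bases from the Itgax start. The regions of Cd2 (chr3:101074165-101075721) and Itga11 (chr9:62512514-62513523) were intergenic. Each of these 8 regions was present in both wild-type and both Ehmt2-/- lists, and peak scores were not compared between lists because their scaling is not given.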

How the data were processed

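RNA-seq was analysed in 10 libraries and H3K9me3 ChIP-seq in 4. Per the labels' protocols, RNA was amplified with SMART-Seq v4 and made into libraries with Nextera, which does not mark strand, so overlapping genes cannot be told apart. The authors' deposited values are FPKM (TopHat and Cufflinks, mm9, per the submitters' processing notes; the sources used here name no version), so read counts are unknown and no counting intervals are given. For the peaks, the submitters' processing notes name Bowtie, HOMER and mm9, and the score of each deposited peak is the authors'; inputs were not used.

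Lines repeating a symbol were summed. Tests used limma 3.58.1 (R 4.3.3) on log2(FPKM + 1) with a trend, on the 11162 genes averaging 0.5 FPKM or more, with Benjamini-Hochberg adjustment over all of them and 3 groups sharing 1 spread, and were tested on simulated data. Scaled values use median-ratio size factors over 11742 genes. Ratios had exact permutation tests. Every member may be named. Other genes are named where called, as checks of the labels, or to show what a list or a marker sum holds. The members and lists were chosen with earlier results of these data known. The replicate numbers of the descriptions were not used as pairs in the main tests, and a block on them was an alternative. Between KO DP and WT SP, deviations of same-numbered libraries correlated at 0.119, 0.293, 0.111 and 0.103. Differently numbered libraries of the same title range correlated at 0.0685 to 0.243, and those of different ranges at -0.291 to -0.101. Within a range, KO DP replicates 1 and 2 correlated more with the same-numbered WT SP library. KO DP replicate 3 correlated more with WT SP replicate 4 (0.201), and KO DP replicate 4 more with WT SP replicate 3 (0.243). The numbers therefore cannot be told apart from the title ranges and are not shown to mark pairs. Ratios of low FPKM values put the libraries' depth at 0.795 to 1.56 times that of KO SP replicate 1, but only 39.5% to 59.0% of those ratios matched a ratio of whole reads within 0.5%, so reads were not recovered. Promoters are from RefSeq (GRCm38.p6). Alternatives were another pseudocount, filter, scaling, block, title range and left-out libraries. One gene of the adhesion lists is not reported here.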

Additional observations from a re-analysis of the deposited data

Results flagged for a closer look

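In WT SP, 4 genes had a library whose distance from its nearest neighbour took up more of the group's range than Dixon's 95% critical value for 4 samples, out of 50 groups examined on the log2(FPKM + 1) scale. About 1 in 20 groups is expected to do so by chance. Itga7 had its highest value in WT SP replicate 2 (0.390 FPKM, Dixon ratio 0.957), and Itgam was also highest there (59.8 FPKM, ratio 0.86). Icam1 was lowest in WT SP replicate 1 (60.9 FPKM, ratio 0.884), and Itgb1 was lowest in WT SP replicate 3 (120.2 FPKM, ratio 0.83).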

How the results depend on the processing

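The calls of KO DP against WT SP depended on the scaling and on single libraries; the cause was not tested. Members called higher (2) were 5 with scaling, 1 with no filter and 1 with a mean of at least 1 FPKM, 4 with a term for the title range, 0 within titles 34 to 37 and 4 within titles 738 to 741 (scaled 0 and 8), and 4 without KO DP replicates 3 and 4 (scaled 4), with 0 to 4 when 1 library was left out. Members called lower (1) were 4 with scaling, 0 with no filter, 2 with no trend, 2 with the replicate block of the descriptions, 4 with the title term, 0 within titles 34 to 37 and 9 within titles 738 to 741 (scaled 0 and 4), and 0 without KO DP replicates 3 and 4, with 0 to 2 when 1 library was left out. The members' median (-0.02) was 0.56 without KO DP replicates 3 and 4 and -0.37 to 0.22 without 1 library.

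In KO DP against KO SP, 0 members were called higher, but 2 with scaling, 3 with the description block (Itga4, Itgav and Vcam1), 1 without KO DP replicates 3 and 4 (scaled 1) and 3 within titles 738 to 741 scaled. Called lower were 0, but 2 with scaling, 11 with the title block (the shared title numbers 738 and 739, 2 pairs), 1 with the title term and 13 within titles 738 to 741 (scaled 4), with 0 to 1 without 1 library. The members' median (-0.26) was 0.33 with the description block, -0.98 with the title block and within titles 738 to 741, and 0.30 without KO DP replicates 3 and 4 (scaled 0.33), with -0.49 to 0.12 without 1 library. In KO SP against WT SP the description block called 2 members lower (Itgav and Vcam1), and the median was 0.12 to 0.35 without 1 library. In KO SP comparisons, too, the numbers were not taken to pair the samples. Correlations were -0.0339 and -0.110 for description numbers with WT SP, and 0.143 and 0.0908 for title numbers with KO DP. Blocked values are given only for what changed.

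Differences that reversed, none of them called as deposited, were these. Against KO SP, Cd44 (0.16) was -0.43 with the title block and within titles 738 to 741, -0.14 with the title term and -0.0434 to 0.49 without 1 library. Itga4 (1.06) was -0.0783 with the title block and within titles 738 to 741 and -0.22 with the term, and Itgb1 (0.22) was -0.34, -0.34 and -0.10. Itgal (-0.14) was 0.38 with scaling, 0.53 with the description block, 0.95 without KO DP replicates 3 and 4 (scaled 0.98) and -0.52 to 0.36 without 1 library. Itgb2 (-0.56) was 0.0177 without KO DP replicates 3 and 4 (scaled 0.0436), and Itgb7 (-0.29) was 0.23 with scaling, 0.0614 without them (scaled 0.0872) and 0.37 within titles 738 to 741 scaled. For KO DP against WT SP, Itgal (-0.53) was 0.32 within titles 34 to 37 (scaled 0.22) and 0.56 without KO DP replicates 3 and 4 (scaled 0.48). Itgb2 (-0.24) was 0.17 with scaling, 0.35 within titles 34 to 37 (scaled 0.25), 0.0936 within titles 738 to 741 scaled, 0.34 without KO DP replicates 3 and 4 (scaled 0.26) and -0.43 to 0.0801 without 1 library, and Itgb7 (0.21) was -0.30 within titles 738 to 741. For KO SP against WT SP, Itga4 (-0.21) was 1.06 with the title term, 1.20 within titles 738 to 741 (scaled 1.09) and -0.75 to 0.72 without 1 library, Itgal (-0.39) was 0.27 with the term, and Itgb1 (0.28) was -0.0363 with the description block.

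Over all genes, 881 were called in KO DP against WT SP, 2011 with scaling, 1435 with the description block, 584 with no filter, 2123 with the title term, 556 with only these 2 groups, 73 within titles 34 to 37, 6015 within titles 738 to 741, 308 without WT SP replicate 3 and 394 without KO DP replicate 3. Separating ratios (3) were 7 within titles 738 to 741 and 3 to 4 without 1 library. Peaks at members (means of 65.5 in wild type and 96 in Ehmt2-/-) were 21 and 17 within 20 kb and 42.5 and 53.5 above the list's median score, and single lists gave 45 to 86 and 87 to 105. Of all recomputed results, 323 kept direction and call, 42 gained and 10 lost a call and 35 reversed; leaving out 1 library gave 248, 7, 8 and 7. Scaled fits without KO DP replicates 3 and 4 or within title ranges, and ratios without those libraries, were chosen after seeing the data. A pseudocount of 0.1 or 0.5, or using 1 line per symbol, moved no count of called members past 1.5 times. FPKM holds no read counts, so what depth limits could not be computed; 2 KO SP libraries limit every comparison that uses them.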
